A study of Homo sapiens with 6 samples.

Results

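The nuclear receptor superfamily was examined in human embryonic stem cells as 46 genes, all of those on a fixed list of gene names, out of 48183 gene names in the count table. All 46 were present in the table, and counts of identifiers that carry the same name were summed. Nuclear receptors are transcription factors with a conserved zinc finger DNA-binding domain and, in most members, a pocket for a small lipophilic ligand such as a steroid, a retinoid, a thyroid hormone, a fatty acid or an oxysterol. Ligand binding exchanges corepressors for coactivators on the receptor surface, and many members bind DNA as partners of a retinoid X receptor (RXR). Orphan members have no accepted ligand in the cell, and several of them, among them ESRRB and NR5A2, are known as parts of the pluripotency network of mouse embryonic stem cells, while NR6A1 is known as a repressor of the pluripotency gene Pou5f1 in differentiating mouse cells.

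Bulk RNA-seq was available for 6 libraries of a human embryonic stem cell line that carries the EOS-GFP reporter. The sample labels call the line H1 and the text of the study calls it H9. The 4 naive libraries came from cells converted with the AMPK activator AICAR (AICAR 1 and AICAR 2), with a constitutively active p38 kinase expressed from a doxycycline-inducible transgene (CA-p38), or with the histone deacetylase inhibitor VPA (VPA), and the 2 untreated primed libraries came from the parental EOS line (primed EOS) and from the EOS line carrying the inducible p38 transgene (primed CA-p38). Primed cells were kept in StemFit AK02N on Matrigel. AICAR or doxycycline was added to PXGL medium and VPA to Ndiff227 with PD0325901 and LIF. After conversion AICAR or doxycycline was withdrawn. The converted cells were then passaged many times in PXGL and sorted for CD75 and SUSD2. Naive cells were kept on mouse feeder cells, and the study also describes a later move of CA-p38 cells to PXGL without feeders. It does not say from which of these cultures the sequenced CA-p38 cells came. The state therefore cannot be told apart from the medium, the feeder cells, the passages or the sort, and the naive group pools different inductions. Nothing in the labels says that libraries of a state came from separate cultures, so that p-values measure the spread between these libraries only. The study gives successive passage numbers for its AICAR samples and does not say whether they came from the same conversion.

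Total counts ran from 46823699 to 54277064 per library, and 3 counts stood for between 0.0553 and 0.0641 CPM, the counts brought to a common library size. CPM values below are scaled by the trimmed mean of M values (TMM). The 7 naive markers summed to between 4809 and 5677 CPM in naive libraries and to 11.3 and 7.64 CPM in primed EOS and primed CA-p38, and the 6 primed markers to between 47.1 and 65.9 CPM against 2457 and 3008 CPM, so that all 6 libraries went with their labels. Naive cells were sorted on SUSD2, which is among these naive markers, so that its 427 to 668 CPM in naive libraries are no independent check. In naive against primed libraries, 8 fibroblast markers summed to between 39.0 and 80.7 CPM against 210 and 192 CPM. The 8 neural markers summed to between 246 and 292 CPM against 546 and 645 CPM. All naive libraries lay above both primed ones for 2 fibroblast markers and below them for 4. For the neural markers these counts were 4 and 2, and NES alone had 87.4 to 92.6 CPM in naive libraries against 426 and 506 CPM. The median log2 fold change of naive over primed libraries over all 26497 gene names tested was 0.11, and it was 0.06 with median-ratio scaling and 0.20 with library totals.

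A mean above 1 CPM was reached by 30 of the 46 receptor genes in naive libraries and by 26 in primed libraries, where 36.8% and 35.1% of all gene names reached it. Of these, 25 were above 1 CPM in both states. HNF4A, HNF4G, NR2F2, PPARG and RARB, 5 genes in all, were above 1 CPM in the naive state and not in the primed state, and RORB was the 1 gene with the opposite pattern. The 15 genes with a mean of at most 1 CPM in either state were ESR1, ESRRB, NR0B1, NR0B2, NR1H4, NR1I2, NR2E1, NR2E3, NR2F1, NR4A3, NR5A1, PGR, RXRG, THRB and VDR, and the highest single value among them was 1.07 CPM. Every naive library exceeded 1 CPM for 27 genes and both primed libraries for 25. Per kilobase of exon (RPKM, the CPM divided by the exon length in kilobases), 18 genes were above 1 in naive and 17 in primed libraries. In bulk RNA a change in the share of cells that express a gene and a change in the RNA per cell cannot be told apart, which holds for each difference below.

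**Figure D1:**
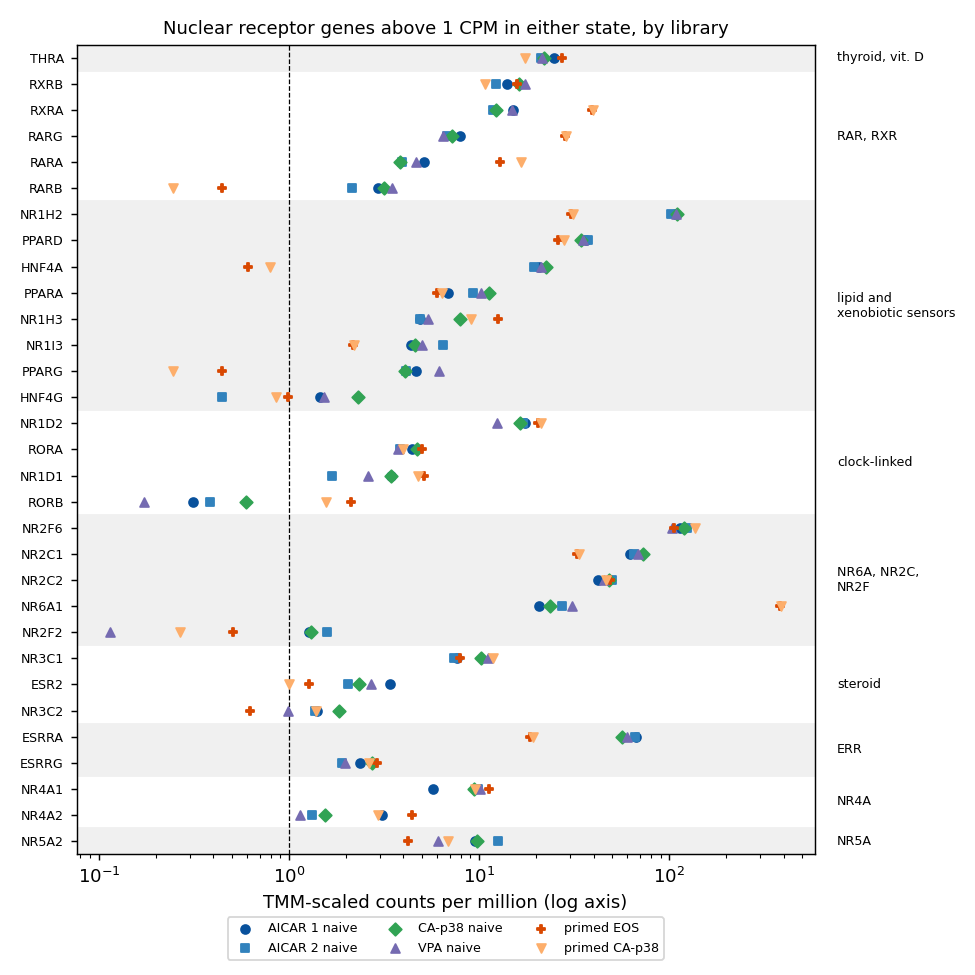
TMM-scaled CPM (log axis) of the 31 nuclear receptor genes with a mean above 1 CPM in either state, one point per library, grouped by role (ERR, estrogen-related receptors) and with a dashed line at 1 CPM. NR6A1 stood at 381 and 388 CPM in the primed libraries and at 20.5 to 30.9 CPM in the naive libraries, while HNF4A stood at 19.3 to 22.4 CPM in naive and below 1 CPM in primed libraries.

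Of the 46 genes, 38 passed the filter on low counts and 8 did not (ESR1, NR0B1, NR0B2, NR1H4, NR1I2, NR2E1, NR2E3 and RXRG). By the quasi-likelihood test of edgeR, adjusted after Benjamini and Hochberg over all gene names tested, 22 of the 38 differed between the states, which is 57.9% against 53.1% of all gene names tested. Of these 22 genes, 12 were higher in naive cells (31.6% of the 38 against 26% of all gene names) and 10 were lower (26.3% against 27%). The share of receptor genes called was thus near that of all genes. The median log2 fold change of the 38 was -0.09, and the median of its absolute value was 0.86, against 0.85 over all gene names tested. Naive and primed libraries did not overlap for 22 of the 38 genes (57.9%), against 64.9% of all gene names tested.

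**Figure D2:**
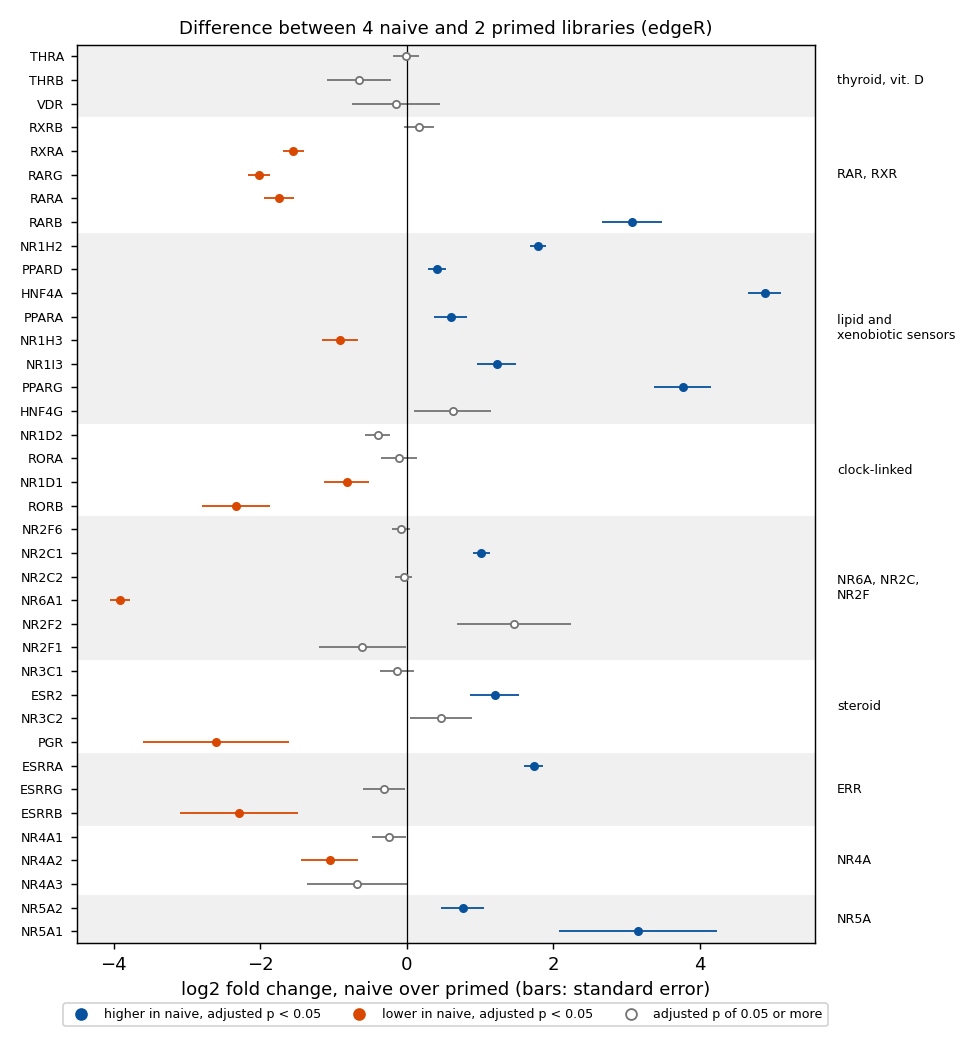
Log2 fold change of 4 naive over 2 primed libraries for the 38 nuclear receptor genes tested, by role (ERR, estrogen-related receptors), with bars for the standard error and filled points for adjusted p below 0.05 (edgeR). HNF4A lay farthest to the right at 4.89 and NR6A1 farthest to the left at -3.91, and the lipid and xenobiotic sensors held 6 of the 12 genes higher in naive cells.

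The promoter sequences of NR6A1, HNF4A, RARB and PPARG, the genes called with a mean above 1 CPM in a state that had the most negative and the 3 most positive log2 fold changes, are shown here because some nuclear receptors act on their own or each other's promoters, and the letters in them can be read beside the levels. They are the first windows listed for each gene by RefSeq on GRCh38.p14, from 250 bases before to 50 bases after the start, 5′ to 3′ on the strand of the gene, with core receptor motifs on either strand in capitals. Of the 4 core motifs searched, the classical one is AGGTCA, another is GGGTCA, a further one is AGTTCA and the last is GGTTCA.
NR6A1 promoter, chr9:124771262-124771561, minus strand: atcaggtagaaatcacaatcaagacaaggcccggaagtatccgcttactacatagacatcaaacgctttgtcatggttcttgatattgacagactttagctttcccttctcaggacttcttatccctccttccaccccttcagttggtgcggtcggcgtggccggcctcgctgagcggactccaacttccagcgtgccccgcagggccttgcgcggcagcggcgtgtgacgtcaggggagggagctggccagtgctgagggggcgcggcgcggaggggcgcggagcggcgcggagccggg
HNF4A promoter, chr20:44355449-44355748, plus strand: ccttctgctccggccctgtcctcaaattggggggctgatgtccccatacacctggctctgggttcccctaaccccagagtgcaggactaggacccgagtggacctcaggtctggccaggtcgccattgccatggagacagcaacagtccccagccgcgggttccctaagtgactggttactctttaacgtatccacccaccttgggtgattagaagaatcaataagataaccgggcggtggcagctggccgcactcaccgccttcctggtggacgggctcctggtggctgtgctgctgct
RARB promoter, chr3:25428013-25428312, plus strand: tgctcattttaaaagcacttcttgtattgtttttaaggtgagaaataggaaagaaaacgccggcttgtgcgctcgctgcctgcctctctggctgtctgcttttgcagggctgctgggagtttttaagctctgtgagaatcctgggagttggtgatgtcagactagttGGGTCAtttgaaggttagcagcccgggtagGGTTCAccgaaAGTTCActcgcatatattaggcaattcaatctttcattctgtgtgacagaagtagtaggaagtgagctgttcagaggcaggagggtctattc
PPARG promoter, chr3:12287118-12287417, plus strand: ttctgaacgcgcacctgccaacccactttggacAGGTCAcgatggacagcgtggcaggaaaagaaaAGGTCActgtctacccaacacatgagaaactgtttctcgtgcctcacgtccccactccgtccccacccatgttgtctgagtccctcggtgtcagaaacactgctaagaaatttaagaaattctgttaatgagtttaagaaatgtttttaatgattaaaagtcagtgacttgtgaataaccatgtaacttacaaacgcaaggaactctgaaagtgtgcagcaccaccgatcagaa

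The RARB window held GGTTCA and AGTTCA as a direct repeat with 5 bases between them, at -53 and -42 from the start, and a further GGGTCA at -83. The PPARG window held 2 copies of AGGTCA on the strand of the gene, at -217 and -184 from the start. No core motif was in the windows of NR6A1 and HNF4A. The table of promoters matched 41 of the 46 genes, and VDR, HNF4G, NR2F6, NR4A2 and NR0B2 had no entry. Over the 96 windows of these 41 genes, AGGTCA was in 16 (16.7%) against 13.8% of all 35116 windows, and any of the 4 core motifs, which do not contain each other, was in 41 (42.7%) against 38.6%. Direct repeats of core motifs with 0 to 5 bases between them were in 1 window (1.04%), that of RARB, against 0.564% of all windows. The longer motif TCAAGGTCA, read by estrogen-related and NR5A receptors and itself containing AGGTCA, was in 0 of the 96 windows against 0.353% of all. These matches describe letters in the windows and are not evidence of binding, and counts per gene do not resolve which start was used.

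The CpG content of the first window varied widely among the members. The ratio of observed to expected CpG had a median of 0.802 for the 28 matched genes above 1 CPM in either state and of 0.506 for the 13 below it in both, against 0.580 over all genes with a window. It was 0.761 for the 12 genes higher in naive cells and 0.506 for the 9 matched genes lower in naive cells, and the ranges overlapped (0 to 0.994 and 0.105 to 1.25). NR6A1, with 61.7% G and C, had a ratio of 0.915, and HNF4A, with 60% G and C, had 0.409. These medians are descriptions over genes and were not tested.

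Transcripts of the retinoic acid receptors changed in opposite directions within one family. RARA, RARB and RARG bind retinoic acid and act as partners of the RXR genes, whose products also pair with the thyroid hormone, vitamin D, liver X and peroxisome proliferator-activated receptors. RARG had 7.93, 6.80, 7.16 and 6.43 CPM in AICAR 1, AICAR 2, CA-p38 and VPA and 28.4 and 28.8 CPM in primed EOS and primed CA-p38. The primed libraries were about alike and each was above all naive libraries, with a log2 fold change of -2.01 (SE 0.15, adjusted p = 1.79e-07). RARA had 5.15, 3.92, 3.82 and 4.66 CPM in the naive libraries in the same order and 12.8 and 16.5 CPM in the primed libraries. It fell by 1.74 on the log2 scale (SE 0.21, adjusted p = 1.25e-05), again with no overlap.

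RARB moved the other way. It had 2.92, 2.13, 3.15 and 3.48 CPM in AICAR 1, AICAR 2, CA-p38 and VPA against 0.444 and 0.245 CPM in primed EOS and primed CA-p38, so that the naive libraries were all higher, and the log2 fold change was 3.07 (SE 0.41, adjusted p = 3.44e-05). Its level stayed low: per kilobase of exon RARB made up between 9.49% and 14.1% of the summed RAR transcripts in naive libraries and 0.567% and 0.284% in primed libraries. The RAR genes together came to between 2.38 and 2.94 RPKM in naive and to 8.30 and 9.13 RPKM in primed libraries. RARA shares 556 bases of exon with RARA-AS1 on the opposite strand, which had a mean of 0.803 CPM in primed libraries and no count in naive libraries.

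Among the RXR genes, RXRA had 15.0, 11.8, 12.3 and 14.9 CPM in AICAR 1, AICAR 2, CA-p38 and VPA and 39.3 and 39.7 CPM in primed EOS and primed CA-p38. The groups did not overlap and RXRA fell by 1.55 on the log2 scale (SE 0.15, adjusted p = 1.43e-06). RXRB had 15.0 ± 2.26 CPM (SD, n = 4) in the naive and 13.3 ± 3.68 CPM (SD, n = 2) in the primed libraries, which overlapped, and its log2 fold change of 0.17 (SE 0.20, adjusted p = 0.497) did not pass the threshold. RXRG was not tested. Per kilobase of exon RXRB made up between 74.3% and 80.3% of the RXR transcripts in naive libraries and 55.6% and 44.8% in primed libraries. These shares depend on the exon lengths used, 3897 bases for RXRB and 12077 for RXRA. In mean CPM RXRB stood at 15.0 against 13.5 for RXRA in naive libraries and at 13.3 against 39.5 in primed libraries. The RXRB value is a sum over 6 identifiers of the major histocompatibility region, with 57 to 218 counts each, between which the mapping could split reads. Exons of RXRB and of SLC39A7, a gene on the opposite strand, have 361 bases in common. Mean SLC39A7 levels were far above those of RXRB, at 131 CPM (naive) and 121 CPM (primed), with a log2 fold change of 0.12. How much SLC39A7 reads add to the RXRB value and to its share of the RXR transcripts was not tested.

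The receptors for fatty acids, sterols, bile acids and xenobiotics held 6 genes that were higher and 1 that was lower in naive cells among the 8 tested, where 26% and 27% of all gene names were higher and lower. HNF4A, a fatty acid-binding regulator of liver and gut genes, had 20.6, 19.3, 22.4 and 21.2 CPM in AICAR 1, AICAR 2, CA-p38 and VPA and 0.606 and 0.797 CPM in primed EOS and primed CA-p38. The 4 naive libraries lay close together and far above both primed libraries, with a log2 fold change of 4.89 (SE 0.22, adjusted p = 1.94e-09), or 29.6-fold. HNF4A is also a gene of visceral endoderm. The 8 markers fixed for mesendoderm and endoderm summed to between 21.3 and 27.1 CPM in naive libraries and to 11.0 and 44.9 CPM in primed EOS and primed CA-p38. All naive libraries lay above both primed ones for 2 of these 8 markers and below them for 3, and none was at 0 in all libraries. GATA4 had 13.5, 7.53, 11.0 and 10.8 CPM in AICAR 1, AICAR 2, CA-p38 and VPA and 0 and 0.940 CPM in primed EOS and primed CA-p38, whereas SOX17 had between 0.201 and 0.376 CPM in naive libraries and 1.56 and 4.86 CPM in the primed ones. The part of such cells in the HNF4A value was not tested.

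PPARG, the regulator of fat cell differentiation, had 4.64, 4.11, 4.08 and 6.15 CPM in AICAR 1, AICAR 2, CA-p38 and VPA and 0.444 and 0.245 CPM in primed EOS and primed CA-p38. All naive libraries were above both primed libraries, and the log2 fold change was 3.77 (SE 0.39, adjusted p = 3.2e-06). PPARG is also active in trophoblast, and the 8 trophectoderm markers summed to between 25.4 and 26.7 CPM in naive libraries and to 4.14 and 5.42 CPM in the primed ones, with 5 of 8 markers higher in every naive library. VGLL1 had no count in 3 of the 4 naive libraries and 0.101 CPM in AICAR 2, and the part of trophectoderm-like cells in the PPARG value was not tested. The other PPAR genes were expressed in both states. PPARD, the widely expressed member, had 35.9 ± 1.42 CPM (SD, n = 4) in the naive and 26.97 ± 1.39 CPM (SD, n = 2) in the primed libraries and rose by 0.41 on the log2 scale (SE 0.12, adjusted p = 0.0126). PPARA, which drives fatty acid oxidation in liver, rose from 6.22 ± 0.253 CPM (SD, n = 2) to 9.43 ± 1.87 CPM (SD, n = 4), a log2 fold change of 0.60 (SE 0.23, adjusted p = 0.0430).

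The liver X receptors, which sense oxysterols, changed in opposite directions. NR1H2 (LXR beta) had 107, 102, 109 and 108 CPM in AICAR 1, AICAR 2, CA-p38 and VPA and 30.5 and 31.2 CPM in primed EOS and primed CA-p38. The spread within each state was small beside the difference, a log2 fold change of 1.79 (SE 0.11, adjusted p = 2.6e-08). NR1H3 (LXR alpha) had 4.89, 4.89, 7.89 and 5.37 CPM in the naive libraries in the same order and 12.6 and 9.05 CPM in the primed libraries. No naive library reached either primed library, CA-p38 came nearest, and the gene fell by 0.91 on the log2 scale (SE 0.25, adjusted p = 0.00715). NR1H3 shares 189 bases of exon with ACP2 on the opposite strand, which had a log2 fold change of -0.89, and the sources used here do not state whether counting used the strand. NR1H2 shares 1182 bases with NAPSA, which had a mean of 0.916 CPM in naive libraries.

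NR1I3, the constitutive androstane receptor of xenobiotic metabolism, had 4.40, 6.48, 4.61 and 5.003 CPM in AICAR 1, AICAR 2, CA-p38 and VPA and 2.18 and 2.19 CPM in the primed libraries. It was higher in each naive library, with a log2 fold change of 1.23 (SE 0.27, adjusted p = 0.00199). Its exons share 663 bases with TOMM40L on the opposite strand, which fell by 0.45 on the log2 scale. HNF4G, the paralog of HNF4A, had 1.45, 0.443, 2.29 and 1.53 CPM in the naive libraries in the same order and 0.990 and 0.858 CPM in the primed libraries, so that AICAR 2 lay below both primed libraries, and it did not pass the threshold (log2 fold change 0.63, SE 0.53, adjusted p = 0.338).

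Orphan receptors held the most abundant transcripts of the family per kilobase of exon. NR6A1 (germ cell nuclear factor, minus strand, chr9:124517275-124771311 on GRCh38) had 20.5, 27.3, 23.5 and 30.9 CPM in AICAR 1, AICAR 2, CA-p38 and VPA and 381 and 388 CPM in primed EOS and primed CA-p38. Both primed libraries were far above all naive libraries, and NR6A1 fell by 3.91 on the log2 scale (SE 0.14, adjusted p = 2.25e-10), or 15.0-fold. Over the 15 alternatives its log2 fold change ran from -4.03 to -3.81. Per kilobase of exon NR6A1 was the first of the 46 genes in primed libraries, at 53.9 RPKM, and the 8th in naive libraries, at 3.59 RPKM.

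NR2F6, a COUP-family repressor, gave no call between the states. It had 114, 124, 119 and 103 CPM in AICAR 1, AICAR 2, CA-p38 and VPA and 106 and 137 CPM in primed EOS and primed CA-p38. The groups overlapped, and the log2 fold change was -0.08 (SE 0.12, adjusted p = 0.616). It was the first gene of the family per kilobase of exon in naive libraries, at 43.4 RPKM, and in 2nd place in primed libraries, at 45.9 RPKM. The testicular receptors NR2C1 and NR2C2 pair with each other on DNA. NR2C1 had 62.3, 65.1, 72.4 and 68.7 CPM in the naive libraries in the same order and 32.7 and 33.5 CPM in the primed libraries, with no overlap and a log2 fold change of 1.02 (SE 0.12, adjusted p = 9.16e-06). NR2C2 had 46.5 ± 3.31 CPM (SD, n = 4) and 47.7 ± 1.74 CPM (SD, n = 2), with a log2 fold change of -0.04 (SE 0.12, adjusted p = 0.806). NR2C2 shares 7157 bases of exon with MRPS25 on the opposite strand, which rose by 0.66 on the log2 scale. NR2F2 (COUP-TFII), a regulator of mesoderm and trophoblast genes, had 1.27, 1.59, 1.31 and 0.115 CPM in AICAR 1, AICAR 2, CA-p38 and VPA and 0.505 and 0.266 CPM in primed EOS and primed CA-p38. VPA alone lay below the primed libraries, and NR2F2 did not pass the threshold with all libraries (adjusted p = 0.130) but did without VPA (log2 fold change 1.83, adjusted p = 0.00547), and over the alternatives its adjusted p ran from 0.00547 to 0.435.

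**Figure D3:**
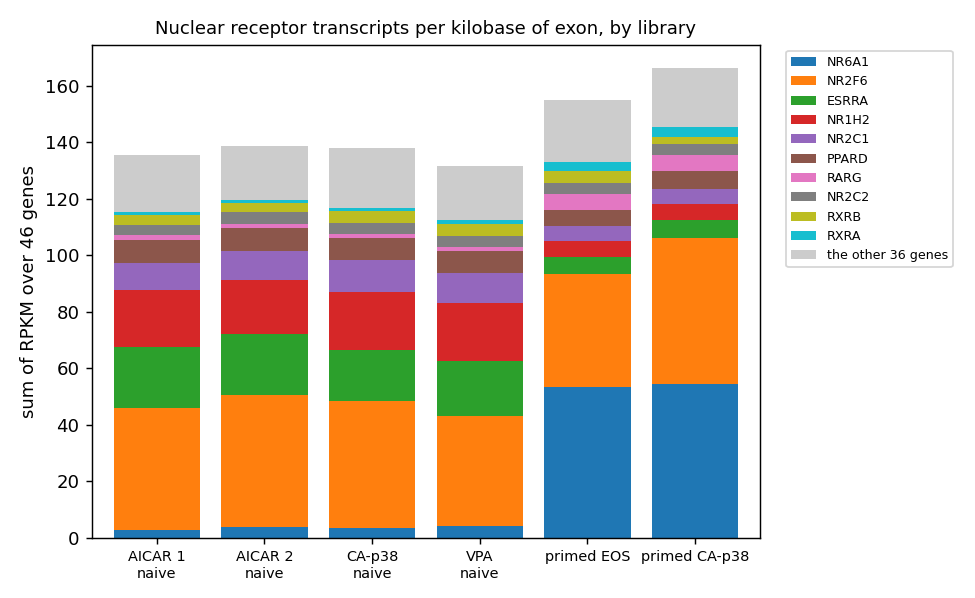
Sum of RPKM over the 46 nuclear receptor genes in each library, stacked by gene for 10 of them and with the other 36 as 1 block. NR6A1 took 34.5% and 32.8% of the sum in the primed libraries and between 2.13% and 3.30% in the naive libraries, where NR2F6, ESRRA, NR1H2 and NR2C1 made up the largest blocks of single genes.

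The family as a whole summed to between 625 and 648 CPM in naive libraries and to 861 and 890 CPM in primed EOS and primed CA-p38. Without NR6A1 the order turned, with between 596 and 624 CPM in naive and 480 and 502 CPM in primed libraries. NR6A1 alone was between 3.29% and 4.93% of the family's CPM in naive libraries and 44.2% and 43.6% in the primed libraries. Per kilobase of exon the genes after NR2F6 in naive libraries were ESRRA (20.2 RPKM), NR1H2 (19.97 RPKM), NR2C1 (10.4 RPKM) and PPARD (8.06 RPKM), of which ESRRA and NR1H2 differed by less than the spread between libraries.

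The estrogen-related receptors are orphan regulators of mitochondrial and oxidative genes. ESRRA had 67.2, 66.3, 56.7 and 60.3 CPM in AICAR 1, AICAR 2, CA-p38 and VPA and 18.4 and 19.1 CPM in primed EOS and primed CA-p38. Every naive library was above both primed libraries, and ESRRA rose by 1.74 on the log2 scale (SE 0.13, adjusted p = 1.68e-07). It made up between 98.5% and 99.2% of the family's 3 members per kilobase of exon in naive libraries and 93.4% and 94.1% in primed libraries. Its exons share 284 bases with TRMT112 on the opposite strand, which fell by 0.54 on the log2 scale. ESRRG, with 2.25 ± 0.383 CPM (SD, n = 4) and 2.77 ± 0.192 CPM (SD, n = 2), did not pass the threshold (log2 fold change -0.30, SE 0.29, adjusted p = 0.394). ESRRB, in mouse a core factor of the naive network, was below 1 CPM in all 6 libraries, with 0.0552, 0.0201, 0.198 and 0.458 CPM in AICAR 1, AICAR 2, CA-p38 and VPA and 0.929 and 0.879 CPM in primed EOS and primed CA-p38, and was lower in naive cells (log2 fold change -2.29, SE 0.80, adjusted p = 0.0296).

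NR5A2, which in mouse can stand in for Oct4 in reprogramming, had 9.55, 12.5, 9.73 and 6.07 CPM in AICAR 1, AICAR 2, CA-p38 and VPA and 4.24 and 6.89 CPM in primed EOS and primed CA-p38. VPA lay below primed CA-p38, so that the groups overlapped, and the log2 fold change was 0.77 (SE 0.29, adjusted p = 0.0437). The labels do not say whether AICAR 1 and AICAR 2 came from separate cultures, and with both summed to 1 library NR5A2 was not called (adjusted p = 0.0749). Its relative NR5A1, the regulator of steroid-producing glands, had between 0.184 and 0.878 CPM in naive libraries and 0 and 0.102 CPM in primed libraries, and its call (adjusted p = 0.0261) rests on few counts.

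Steroid receptors gave 1 call in each direction among the 4 tested, where 26% and 27% of all gene names were higher and lower. NR3C1, the glucocorticoid receptor, had 9.09 ± 1.85 CPM (SD, n = 4) in the naive and 9.94 ± 2.77 CPM (SD, n = 2) in the primed libraries (log2 fold change -0.13, SE 0.24, adjusted p = 0.670). NR3C2, the mineralocorticoid receptor, had 1.40 ± 0.347 CPM (SD, n = 4) and 1.01 ± 0.540 CPM (SD, n = 2) (log2 fold change 0.47, SE 0.42, adjusted p = 0.369). For both genes naive and primed libraries overlapped. ESR2, estrogen receptor beta, had 3.38, 2.05, 2.33 and 2.69 CPM in AICAR 1, AICAR 2, CA-p38 and VPA and 1.27 and 1.001 CPM in primed EOS and primed CA-p38, and was higher in naive cells (log2 fold change 1.20, SE 0.34, adjusted p = 0.00913). PGR, the progesterone receptor, had at most 0.286 CPM in naive libraries and 0.525 and 0.674 CPM in primed EOS and primed CA-p38, with an adjusted p of 0.0425, which was 0.0598 with the AICAR libraries summed.

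THRA, one of the thyroid hormone receptors, had 24.9, 21.1, 21.998 and 21.4 CPM in AICAR 1, AICAR 2, CA-p38 and VPA and 27.4 and 17.5 CPM in primed EOS and primed CA-p38. The naive libraries lay between the primed ones, and the log2 fold change was -0.0039 (SE 0.18, adjusted p = 0.987). THRB and VDR also did not pass the threshold.

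Among the clock-linked receptors, RORB fell and RORA did not pass the threshold. RORB had 0.313, 0.382, 0.593 and 0.172 CPM in AICAR 1, AICAR 2, CA-p38 and VPA and 2.12 and 1.57 CPM in primed EOS and primed CA-p38, with no overlap and a log2 fold change of -2.33 (SE 0.47, adjusted p = 0.000952). RORA, an activator of the clock gene ARNTL, had 4.19 ± 0.468 CPM (SD, n = 4) in the naive and 4.50 ± 0.753 CPM (SD, n = 2) in the primed libraries (log2 fold change -0.10, SE 0.24, adjusted p = 0.744). NR1D1 (REV-ERB alpha), which represses ARNTL, had 3.44, 1.69, 3.46 and 2.60 CPM in the naive libraries in the same order and 5.11 and 4.76 CPM in the primed libraries (log2 fold change -0.82, SE 0.30, adjusted p = 0.0380). Its paralog NR1D2 was also lower in every naive library, with 15.8 ± 2.34 CPM (SD, n = 4) against 20.8 ± 0.504 CPM (SD, n = 2), but its log2 fold change of -0.40 (SE 0.17) had an adjusted p of 0.0625. NR1D1 and THRA lie on opposite strands and share 473 bases of exon.

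The NR4A genes are immediate early genes that need no ligand. NR4A2 had 3.09, 1.33, 1.54 and 1.146 CPM in AICAR 1, AICAR 2, CA-p38 and VPA and 4.44 and 2.94 CPM in primed EOS and primed CA-p38. AICAR 1 lay above primed CA-p38, so that the groups overlapped, and NR4A2 fell by 1.05 on the log2 scale (SE 0.39, adjusted p = 0.0372). NR4A1 had 8.78 ± 2.05 CPM (SD, n = 4) and 10.4 ± 1.24 CPM (SD, n = 2) and did not pass the threshold (log2 fold change -0.24, SE 0.24, adjusted p = 0.415). NR4A3 did not pass it either.

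The calls differed in how far they rested on single libraries. The share of all gene names that kept or lost a call is not given here, so these counts do not set the receptor genes apart. HNF4A, PPARG, RARB, NR1H2, ESRRA, NR1I3, NR2C1, NR6A1, RORB, RARG, RARA and RXRA, 12 of the 22, kept their call in every one of the 15 alternatives that gave them a value. Without primed EOS 13 of 40 tested genes were called, the 12 above and ESR2, and without primed CA-p38 17 of 40. PPARD (adjusted p = 0.112), NR1H3 (0.117), NR1D1 (0.146), PPARA (0.184), NR5A1 (0.151), ESRRB (0.118), PGR (0.119), NR4A2 (0.271) and NR5A2 (0.338) lost their call without primed EOS. Without primed CA-p38, ESR2 (adjusted p = 0.0812), PPARA (0.122), NR1D1 (0.110), ESRRB (0.107) and PGR (0.213) lost it. Leaving out a naive library ended the call of PPARA (without AICAR 2, CA-p38 or VPA), NR1D1 (AICAR 2 or VPA), ESRRB (AICAR 1), PGR (AICAR 1, AICAR 2 or CA-p38), NR4A2 (AICAR 2, CA-p38 or VPA), NR5A1 (VPA) and NR5A2 (AICAR 1, AICAR 2 or CA-p38), with adjusted p between 0.0561 and 0.117.

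Each naive library was also set against the primed library of its own line, primed CA-p38 for CA-p38 and primed EOS for the others, which gives 1 ratio per library and no test. Of the 31 expressed genes, 6 were at least 2-fold higher in all 4 naive libraries (HNF4A, PPARG, RARB, NR1H2, ESRRA and NR1I3), which 15.2% of all 19196 gene names above 1 CPM in either state were, and 5 were at least 2-fold lower (NR6A1, RORB, RARG, RARA and RXRA), against 15.9%. The log2 ratios of NR1H2 lay between 1.75 and 1.83 and those of HNF4A between 4.79 and 5.10, so that the inductions gave about the same value. Those of RORB ran from -3.55 in VPA to -1.39 in CA-p38. Single libraries stood apart for a few genes. NR2F2 had a log2 ratio of -2.05 in VPA and between 1.31 and 2.25 in the other 3 libraries, HNF4G had -1.14 in AICAR 2 and between 0.55 and 1.41 in the others, and NR1H3 had -0.20 in CA-p38 and between -1.37 and -1.23 in the others.

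**Figure D4:**
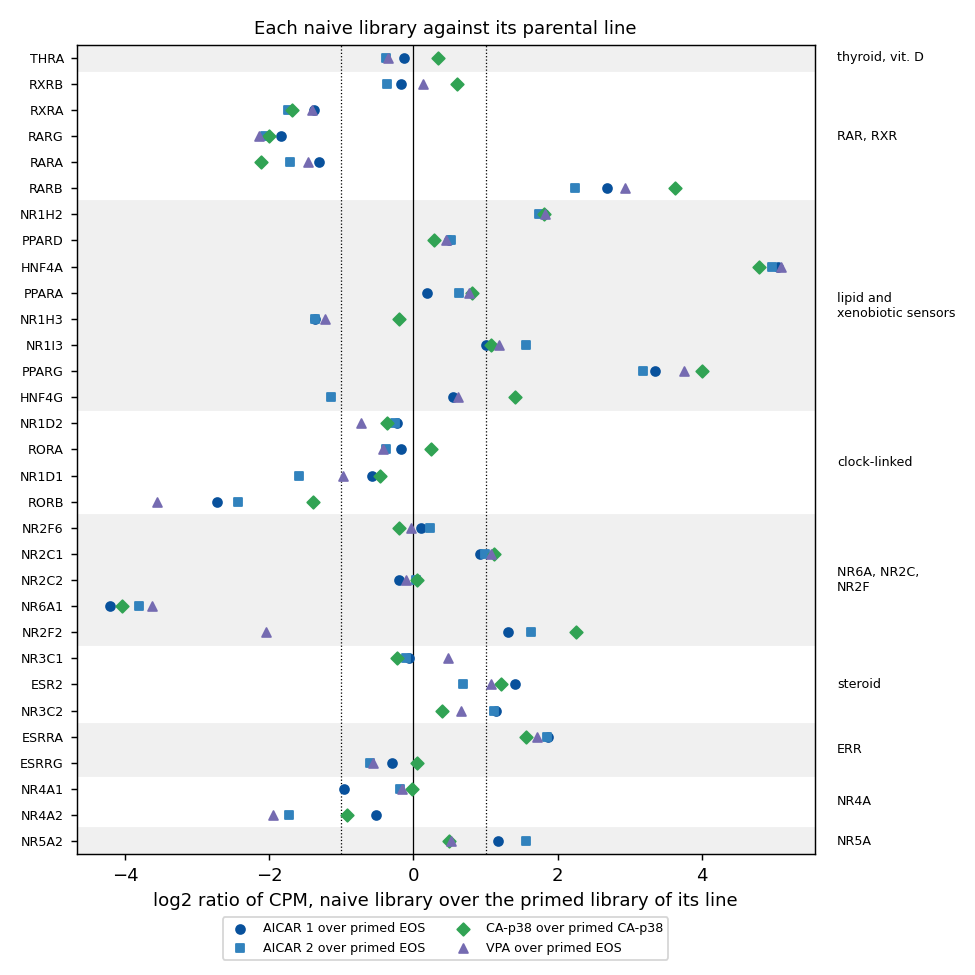
Log2 ratio of CPM of each naive library over the primed library of its own line (prior count 0.5) for the 31 expressed nuclear receptor genes, with dotted lines at 2-fold. The points of NR1H2, ESRRA, HNF4A and RARG lie close together, while NR2F2 is at -2.05 in VPA and above 1 in the other libraries.

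The genes that work with these receptors were taken from fixed lists of coregulators, chaperones, ligand-handling genes, known targets, clock genes and partners of the naive network. Of their 106 different genes, 102 were tested, and 70 of these (68.6%, against 53.1% of all gene names tested) differed between the states. Among them 33 were higher (32.4% against 26%) and 37 lower (36.3% against 27%) in naive cells, and the median log2 fold change of the 102 was -0.04. These counts include the naive network list, of whose 8 tested genes 7 were called and which shares genes with the naive markers. The counts of the single lists below stand against the same shares of all gene names, 26% higher and 27% lower. Among 14 coactivators, 6 were higher and 2 lower. NCOA3 had 189 ± 19.96 CPM (SD, n = 4) in the naive and 35.8 ± 0.945 CPM (SD, n = 2) in the primed libraries (log2 fold change 2.40, SE 0.13, adjusted p = 7.4e-09) and NCOA1 rose by 2.13 (SE 0.21), while CREBBP fell by 1.05 (SE 0.17) and NCOA2 by 0.63 (SE 0.20). The steroid receptor coactivators NCOA1, NCOA2 and NCOA3, which bind liganded receptors, thus did not change in 1 direction. The call of NCOA2 was lost without primed CA-p38 (adjusted p = 0.206). Among 11 corepressors, 2 were higher and 6 lower. NRIP1, which recruits histone deacetylases to liganded receptors, fell from 41.6 ± 14.0 CPM (SD, n = 2) to 4.21 ± 1.27 CPM (SD, n = 4), a log2 fold change of -3.30 (SE 0.26, adjusted p = 2.28e-07). TBL1X, a subunit of the NCOR complex, fell by 2.43 (SE 0.13), whereas its paralog TBL1XR1 rose by 0.43 (SE 0.12), a call lost without primed EOS (adjusted p = 0.129), and NR2C2AP, a partner of NR2C2, rose by 1.01 (SE 0.17).

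Of 16 genes of retinoid handling and response, 2 were higher (12.5%) and 9 lower (56.2%) in naive cells, against 26% and 27% of all gene names, and their median log2 fold change was -0.75. CRABP1, which binds retinoic acid in the cytoplasm, had 3.44 ± 0.753 CPM (SD, n = 4) in the naive and 135 ± 10.1 CPM (SD, n = 2) in the primed libraries (log2 fold change -5.29, SE 0.17, adjusted p = 8.44e-11). RARRES2 had at most 4 counts in a naive library and 1550 and 1346 counts in primed EOS and primed CA-p38. RDH10, which oxidises retinol, rose by 2.44 on the log2 scale (SE 0.22, adjusted p = 8.97e-07). ALDH1A3, which oxidises retinaldehyde, rose by 2.196 (SE 0.22, adjusted p = 2.19e-06). Their relatives in the list did not follow. ALDH1A1 had a log2 fold change of -3.04 (SE 0.63, adjusted p = 0.00123) and RDH11 of -0.80 (SE 0.10, adjusted p = 1.49e-05), and ALDH1A2 did not pass the threshold (adjusted p = 0.686). Of 8 steroid receptor chaperones, 2 were higher and 4 lower. FKBP5 had 33.1 ± 6.64 CPM (SD, n = 4) and 157 ± 2.96 CPM (SD, n = 2) (log2 fold change -2.24, SE 0.15, adjusted p = 7.41e-08), BAG1 fell by 0.78 (SE 0.14), FKBP4 rose by 0.42 (SE 0.09) and HSP90AA1 rose by 0.27 (SE 0.09), a call lost without AICAR 1, CA-p38, VPA or primed EOS and with DESeq2 (adjusted p = 0.137).

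Each of the 3 lists of targets held genes of both directions. Of 8 glucocorticoid receptor targets 2 were higher and 4 lower: KLF9 had 17.3 ± 1.47 CPM (SD, n = 4) and 0.457 ± 0.0393 CPM (SD, n = 2) (log2 fold change 5.23, SE 0.25, adjusted p = 2.29e-09) and SGK1 rose by 3.45 (SE 0.14, adjusted p = 9.09e-10), while FKBP5, itself in this list, and ERRFI1 fell by 2.24 and 2.02. Of 7 liver X receptor targets, NR1H3 among them, 4 were higher and 2 lower. ABCA1, the cholesterol exporter, rose from 30.8 ± 9.22 CPM (SD, n = 2) to 147 ± 6.16 CPM (SD, n = 4), a log2 fold change of 2.26 (SE 0.16, adjusted p = 1.16e-07), and MYLIP, which degrades the LDL receptor, rose by 1.45 (SE 0.18), while SCD, a fatty acid desaturase, fell by 1.44 (SE 0.08). Of 10 PPAR targets tested, 4 were higher and 4 lower. CPT1A, which brings fatty acids into mitochondria for oxidation, rose by 2.70 (SE 0.15), and ACADM, of the same pathway, and UCP2 fell by 0.43 (SE 0.11) and 0.77 (SE 0.19).

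Of 8 tested genes of thyroid hormone and vitamin D handling, 4 were higher and 1 lower, and their median log2 fold change was 1.91. SLC16A10, a thyroid hormone transporter, had 67.2 ± 2.48 CPM (SD, n = 4) and 3.74 ± 0.520 CPM (SD, n = 2) (log2 fold change 4.17, SE 0.15, adjusted p = 3.07e-10). Of 15 clock genes 3 were higher and 5 lower. Among them BHLHE41 had 5.31 and 0.981 CPM in primed EOS and primed CA-p38 and between 0.181 and 0.258 CPM in naive libraries. The log2 fold change of BHLHE41 ran from -4.59 to -2.18 over the alternatives. NPAS2 rose by 1.57 (SE 0.29) and DBP by 1.44 (SE 0.22), while BHLHE41 fell by 3.84 (SE 0.55) and ARNTL, the target of RORA and NR1D1, fell by 1.09 (SE 0.35) with overlapping libraries and without a call when primed CA-p38 was left out (adjusted p = 0.513). Of 8 partners of the naive network 5 were higher and 2 lower, the latter SOX2 (log2 fold change -0.87, SE 0.10) and SALL4 (-0.66, SE 0.12), and KLF4 had 287 ± 22.7 CPM (SD, n = 4) against 0.934 ± 0.107 CPM (SD, n = 2). KLF17, the other gene named by the rule, had 3 and 0 counts in primed EOS and primed CA-p38 and at least 705 counts in each naive library. KLF17 and TFCP2L1 of this list are also among the naive markers, so that its counts are no independent result.

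**Figure D5:**
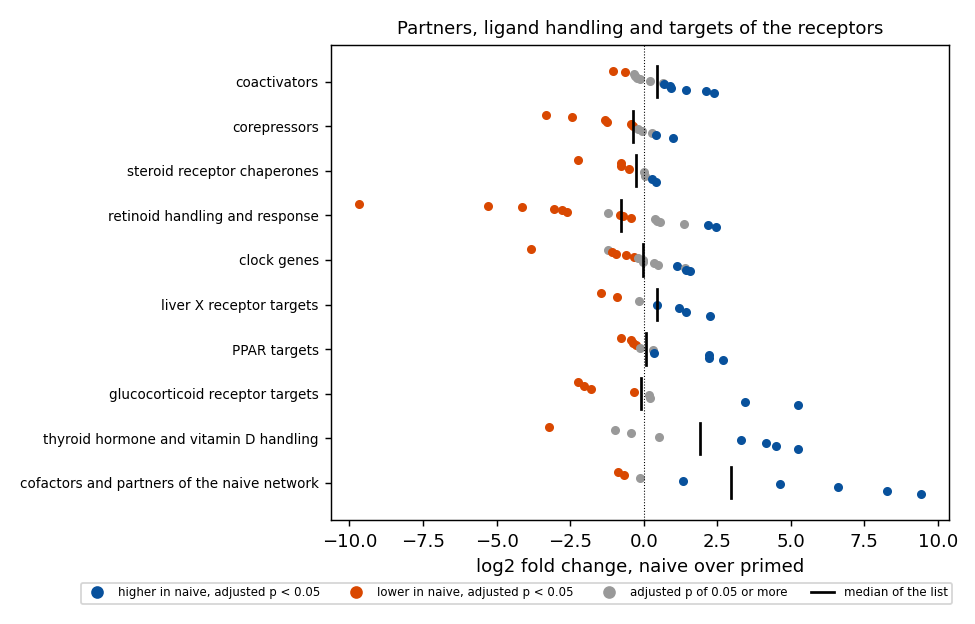
Log2 fold change of naive over primed libraries for each tested gene of the 10 lists of partners, ligand handling and targets, coloured by direction where adjusted p is below 0.05 (edgeR), with the median of each list as a bar. The retinoid list has its median at -0.75 and the thyroid hormone and vitamin D list at 1.91, and the outermost points, RARRES2 and KLF17, belong to genes with at most 4 counts in each library of 1 state, whose fitted values are no measure of size.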

How the data were processed

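Poly(A) RNA of 6 libraries was sequenced with a stranded SMART-Seq kit. The authors trimmed reads (cutadapt 1.15 through Trim Galore 0.4.4), mapped them with Bowtie2 to Ensembl transcripts, coding and noncoding, of GRCh38, and counted alignments per gene. Use of the strand is not given in the sources used here. The deposited values are whole, unnormalized counts, 1 row per Ensembl identifier. Of the columns, 23 from other studies were not used, and 26 spike-in rows (at most 1 count) were left out. Counts of 61196 identifiers were summed to 48183 names. Among the members only RXRB had several identifiers (6).

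The 4 naive libraries were set against the 2 primed libraries in edgeR 4.0.16 (glmQLFit, glmQLFTest, TMM, filterByExpr, common dispersion 0.0563), Benjamini-Hochberg adjustment over 26497 names and a threshold of 0.05. The SE is the log2 fold change divided by the root of F. Parental ratios used a prior count of 0.5. RPKM used union exon lengths of GENCODE on GRCh38. Replicates were compared: chi-square per gene between AICAR 1 and AICAR 2 was 23.0, against 21.5 to 39.8 for other naive pairs, so each was kept as a library. The steps were tested on simulated data.

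Named genes were all members past the threshold at 1 CPM or more in either state, those above 1 CPM in both states that were not past it, up to 5 others with values, and of each further list the 2 highest and 2 lowest genes past the threshold, a few of which are not reported here. Members, lists and tests were chosen with earlier results of these data known. Alternatives covered scaling, test (DESeq2, limma-voom), filter, identifiers, summed AICAR libraries, parental line as a block and each library left out.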

Additional observations from a re-analysis of the deposited data

Results flagged for a closer look

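In the 4 naive libraries, the value of 1 library stood apart from the other 3 by Dixon's test for 2 of the 31 expressed nuclear receptor genes, and chance gives such a gap in about 1 of 20 groups of 4. NR1H3 had 7.89 CPM in CA-p38, against 4.89 to 5.37 CPM in the other naive libraries. NR4A1 had 5.74 CPM in AICAR 1, against 9.40 to 10.1 CPM in the other naive libraries.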

How the results depend on the processing

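With 22 calls among the receptor genes, 12 of them higher and 10 lower in naive cells, leaving out 1 library gave between 13 and 19 calls, of which between 5 and 8 were lower. The other 9 alternatives gave between 18 and 23 calls. The share of all gene names called under each alternative is not given here. Counting genes above 1 RPKM in place of 1 CPM gave 18 in naive and 17 in primed libraries. NR1D2 passed with median-ratio scaling (adjusted p = 0.0446), DESeq2 (0.0320) and limma-voom (0.0487), and NR2F2 with a filter of 1 count in any library (0.0379). Calls were lost for PPARA with median-ratio scaling (adjusted p = 0.0623), limma-voom (0.0530) and the 1-count filter (0.0555), for NR5A2 with median-ratio scaling (0.0609), for NR5A1 with limma-voom (0.0625), for NR1D1 (0.0601), PGR (0.0515) and NR4A2 (0.0554) with library totals, and for NR5A2 and PGR with the AICAR libraries summed. Among the genes named, 8 changed sign under some alternative, none of them with a call: THRA with library totals (log2 fold change 0.088), limma-voom (0.030), and a filter of 10 counts in every library (0.016), VDR with limma-voom (0.171) and the parental line block (0.202), NR2F6 with library totals (0.026), and NR2C2 with library totals (0.062). Leaving out 1 library in turn gave log2 fold changes between -0.286 and 0.345 for THRA, between -0.257 and 0.066 for RORA, between -0.854 and 1.240 for VDR, between -0.078 and 0.474 for RXRB, between -0.266 and 0.127 for NR2F6, between -0.401 and 0.195 for NR3C1 and between -0.002 and 1.165 for NR3C2, with 1 end of each range without primed EOS and the other without primed CA-p38. The causes were not tested. Naive and primed libraries share a parental line and no replicate number. With the line as a block 20 genes were called, and NR1D1 (adjusted p = 0.0592) and PGR (0.0676) lost their call. With 1 primed library per line, members with a mean under 1 CPM are limited by counts, and the lone primed library of a fit without the other was taken to vary like the naive libraries.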
